A study of Mus musculus with 18 samples.

Results

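Untreated LYVE1+CX3CR1+ macrophages of the mouse synovium were compared with untreated MHCII+CD11c+ macrophages of the same tissue across all expressed genes. The comparison took 6 of the 18 libraries of the series, the 3 of each subset whose labels name the subset and no treatment. The series holds bulk RNA-sequencing of 3 sorted subsets (the other one is MHCII+CD11c-), each without treatment and 8 h after an intravenous injection of immune complexes (IC), made of ovalbumin and rabbit antibodies against it. All mice were wild-type C57BL/6 per the labels (C57BL/6J in the methods), of both sexes, 8 to 20 weeks of age according to the general statement of the methods, with no transgene or deletion in any group. Synovium was digested with collagenase, and cells were sorted by flow cytometry as MHCII-Ly6C-LYVE1+CX3CR1+ in the one group and CD11c+MHCII+ in the other. For each library 3 mice were pooled (6 legs), so the p-values measure the spread between pools and not between animals. In bulk RNA of sorted cells, fewer cells of a type and less RNA per cell cannot be told apart.

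Synovial macrophages that carry CX3CR1 and VSIG4 form the lining that separates the joint cavity from the connective tissue, where they are held together by junction proteins and take up debris and immune complexes. The sublining tissue holds macrophages and dendritic cells that carry MHC class II molecules, which present peptides to CD4+ T cells, and CD11c, an integrin chain (Itgax) much used to mark dendritic cells and some macrophages. CD11c and class II are therefore markers of more than 1 cell type, and a gate on both can hold macrophages, dendritic cells and cells on the way from monocytes to either.

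The LYVE1+CX3CR1+ libraries held 1509070 to 1801039 counts and the MHCII+CD11c+ libraries 1589668 to 2172358. At this depth 3 counts correspond to 1.45 to 2.02 CPM, counts scaled to a common library total with the TMM sizes named below, and intervals and floors given here cover counting error only. The ribosomal precursor Rn45s took 8.59% to 15.2% of the counts of the LYVE1+CX3CR1+ libraries and 11.9% to 13.2% of the others. All levels below are CPM on library sizes scaled by the TMM method, given in the order of replicates 1, 2 and 3, and a gene is called higher or lower where the adjusted p of edgeR's quasi-likelihood test was under 0.05.

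Some libraries stood apart. LYVE1+CX3CR1+ library 1 had Prg4, the lubricin of lining fibroblasts and cartilage, at 601, 5.64 and 7.54 CPM across the 3 libraries, that is, high in library 1 alone. The summed level of 12 fibroblast markers was 696.1, 83.4 and 68.9 CPM, and without Prg4 the other 11 summed to 95, 77.7 and 61.4 CPM in LYVE1+CX3CR1+ and 67.2, 96.6 and 68.5 CPM in MHCII+CD11c+. Globin genes were high in LYVE1+CX3CR1+ library 2 and in MHCII+CD11c+ library 1, where 8 erythroid markers summed to 1151 and 1338 CPM, against 4.04 and 10.8 CPM in the other LYVE1+CX3CR1+ libraries and 364 and 109 CPM in the other MHCII+CD11c+ libraries. Erythroid markers therefore differed among libraries of the same group and none of the 5 tested was called.

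Markers of other blood cells lay higher in the MHCII+CD11c+ libraries. All 7 B cell markers tested were called lower in LYVE1+CX3CR1+, their sum being 0.627 to 3.77 CPM against 80.2 to 111 CPM (median log2 fold change -5.94, or -3.03 with genes without a count at their bound). Of 11 neutrophil markers tested, 9 were called lower, with sums of 18.9 to 24.8 CPM against 129.5 to 864 CPM (median -6.34, or -3.29 with such genes at their bound), the highest in MHCII+CD11c+ library 1. The gene filter keeps a gene with enough counts in any group. Of these markers, 4 of the 7 and 5 of the 11 had no count in 1 of the 2 subsets. Such genes could be called in 1 direction only, so the counts called describe the libraries and test nothing. Of the T and NK cell markers, Cd3d, Cd3e, Cd3g, Klrb1c, Gzma and Ncr1 had no count in the 6 libraries, and Cd2, an adhesion molecule of T cells that some dendritic cells also carry, was at 7.41, 11.3 and 5.92 CPM in LYVE1+CX3CR1+ and 108, 80.9 and 107 CPM in MHCII+CD11c+ (log2 fold change -3.58, SE 0.373, edgeR adjusted p = 5.85e-08). Schwann cell markers went the other way, with 2 of 4 called higher in LYVE1+CX3CR1+, Pmp22 among them, and sums of 563 to 767 CPM against 224 to 274 CPM. Of 4 endothelial markers tested 1, Pecam1, was lower (-4.07), of 2 muscle markers 1, Myh4, and of 8 mast cell markers none was called. The mast cell sums were 5.39, 55.2 and 3.23 CPM in LYVE1+CX3CR1+ and 19.4, 88.8 and 67.0 CPM in MHCII+CD11c+ (median log2 fold change -1.47). After IC all 8 mast cell markers were called lower in LYVE1+CX3CR1+. Myh4 was at 1.35, 4.39 and 0.538 CPM and 2.63, 3.94 and 36.6 CPM. The call of Myh4 was lost without LYVE1+CX3CR1+ library 1 (log2 fold change -2.56, edgeR adjusted p = 0.151), LYVE1+CX3CR1+ library 3 (log2 fold change -2.28, edgeR adjusted p = 0.194) or MHCII+CD11c+ library 3 (log2 fold change -0.63, edgeR adjusted p = 0.806). It was also lost with total counts (edgeR adjusted p = 0.0553), with DESeq2's Wald test (adjusted p = 0.0633) and with the replicate number as a block (edgeR adjusted p = 0.179). No marker of cartilage, bone or fat had enough counts to test. The part of these cells in the results below was not tested. Without LYVE1+CX3CR1+ library 1 and MHCII+CD11c+ library 1 together, a choice made after seeing these values, 1489 genes were called in the comparison described below, in place of 2303. Leaving out any 1 of the 6 libraries gave 1815 to 1960. No other pair was left out, so the part of the smaller groups in this drop was not tested.

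**Figure D1:**
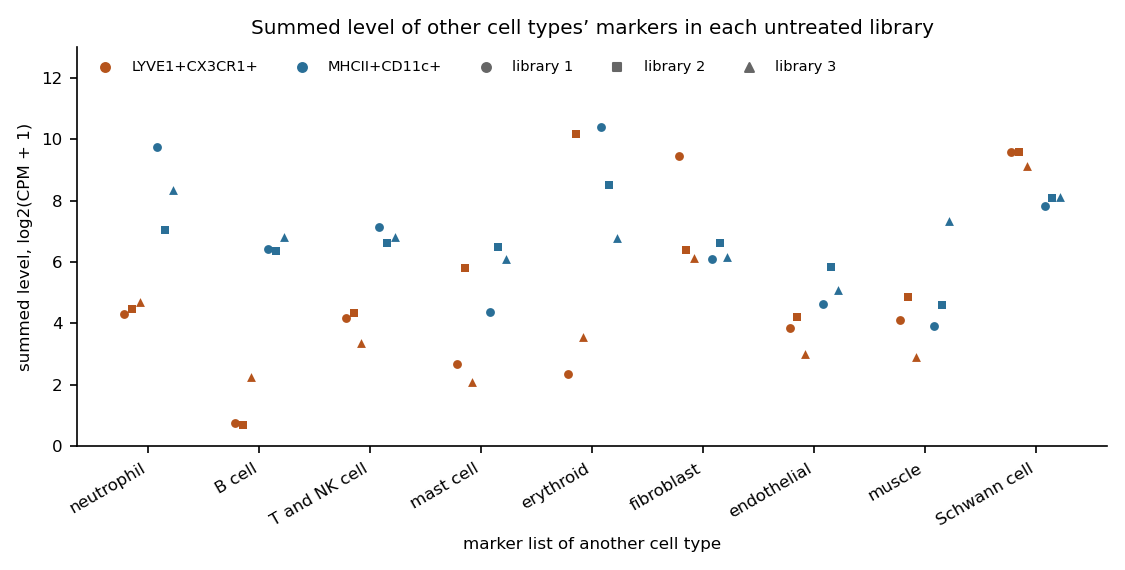
Summed CPM of the marker genes of other cell types in each of the 6 untreated libraries as log2(CPM + 1), 1 point per library, with colours for the subsets and shapes for libraries 1 to 3. The fibroblast sum is high in LYVE1+CX3CR1+ library 1 (696.1 CPM) through Prg4, erythroid markers in LYVE1+CX3CR1+ library 2 and MHCII+CD11c+ library 1, and B cell and neutrophil markers in all 3 MHCII+CD11c+ libraries.

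The labels were checked against the genes of the antigens used for sorting, which are not results of the comparison (positions are those of RefSeq on GRCm38). Lyve1 (chr7:110850607-110862953), a hyaluronan receptor, was at 2171, 2382 and 2563 CPM in LYVE1+CX3CR1+ and 365, 439 and 329 CPM in MHCII+CD11c+ (log2 fold change 2.65, SE 0.291, edgeR adjusted p = 1.28e-07). Cx3cr1, the fractalkine receptor, was at 829.6, 708 and 779 CPM in LYVE1+CX3CR1+ and 78.8, 57.9 and 61.7 CPM in MHCII+CD11c+ (log2 fold change 3.54, SE 0.208, edgeR adjusted p = 1.45e-12). Lyve1 was thus present in all 6 libraries, higher in the LYVE1+CX3CR1+ libraries, and the ranges of the groups did not overlap. Itgax (chr7:128129526-128150657), the gene of CD11c, was at 4.04, 0 and 1.08 CPM in LYVE1+CX3CR1+ and 304, 240 and 265 CPM in MHCII+CD11c+ (log2 fold change -7.29, SE 0.565, edgeR adjusted p = 3.79e-10). H2-Aa (chr17:34282744-34287823), the alpha chain of the class II molecule I-A, was at 3.37, 3.13 and 2.69 CPM in LYVE1+CX3CR1+ and 3811, 3950 and 4389 CPM in MHCII+CD11c+ (log2 fold change -10.34, SE 0.234, edgeR adjusted p = 2.01e-21). Vsig4 (chrX:96247201-96293438), a complement receptor that the sort did not use and that marks lining macrophages, was at 1800, 1314 and 1516 CPM in LYVE1+CX3CR1+ and 67.8, 46.7 and 34.7 CPM in MHCII+CD11c+ (log2 fold change 4.96, SE 0.25, edgeR adjusted p = 1.01e-13). Of the 8 genes listed for the sort antigens (H2-Eb1 included, with the limit given below), 2 were called higher and 5 lower (median -6.04, or -3.87 with genes without a count at their bound). Among the lower was Ly6c2, of few counts, whose call depends on single libraries (given below). Lyve1, Vsig4, Itgax and H2-Aa went the way of the labels in every library. Of 14 genes shared by most macrophages, 5 were called higher (3 without MHCII+CD11c+ library 3) and 1, Mrc1, lower (0 without LYVE1+CX3CR1+ library 1, LYVE1+CX3CR1+ library 2 or MHCII+CD11c+ library 2), with a median of 0.188. Lyz2, lysozyme, lay at 6510, 6103 and 6155 CPM in LYVE1+CX3CR1+ and 7159, 6792 and 6609 CPM in MHCII+CD11c+ and was not called. The same was true of Cd14, Spi1, Fcgr1 and Itgam. With only the 6 libraries fitted, Itgam was called (0.38, edgeR adjusted p = 0.0121).

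Of the 10550 genes tested, 1000 (9.48%) were called higher and 1303 (12.4%) lower in LYVE1+CX3CR1+, 2303 (21.8%) in all. The median log2 fold change (LYVE1+CX3CR1+ minus MHCII+CD11c+) over all genes tested was -0.0183. The ranges of the 3 and 3 libraries did not overlap for 4359 genes (41.3%), among them 2275 of the 2303 calls. Wide differences lay mostly on the lower side: 247 calls were beyond 2 log2 units higher and 537 beyond 2 log2 units lower, and 25 against 249 were beyond 4 log2 units. Of the genes called lower, 84 had no count in any LYVE1+CX3CR1+ library. These passed the gene filter through other groups and could only be called lower, in the gene lists below as well. Their fitted log2 fold changes depend on the prior count, so the counts of wide differences on the lower side do so in part. Every gene called higher had at least 1 count in the MHCII+CD11c+ libraries. A fold against a group with no count is given below as a lower bound, computed against 3 counts per library. Leaving out each of the 6 libraries in turn, 1815 to 1960 genes were called, and 1434 of the 2303 were called in each of these fits.

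**Figure D2:**
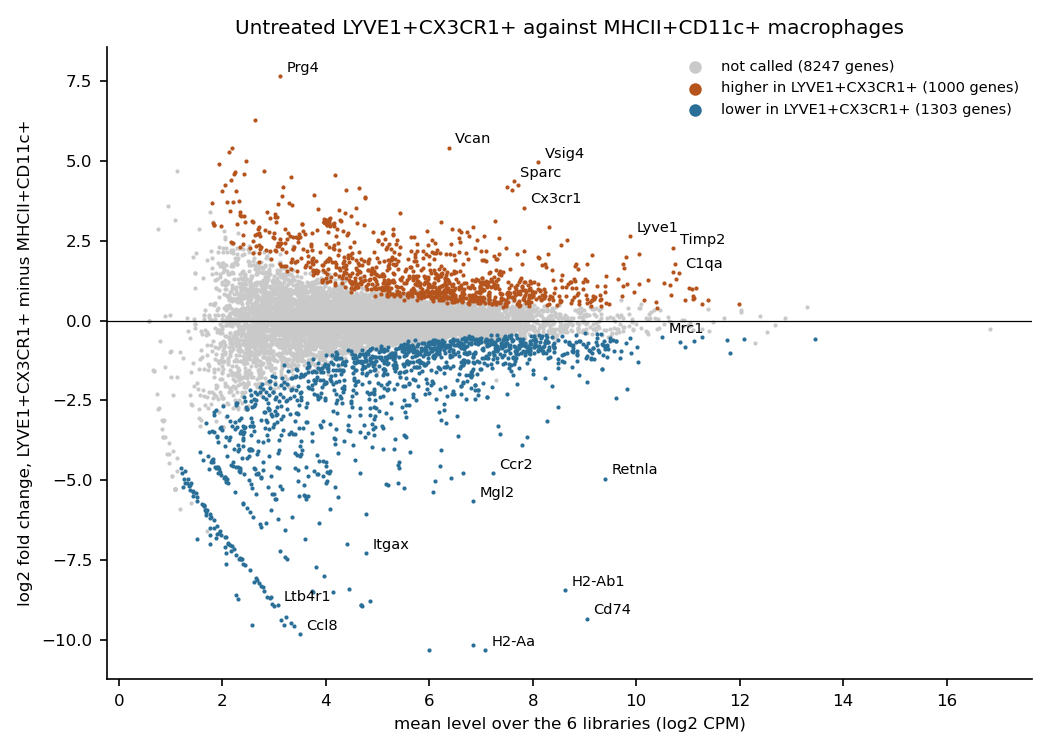
Log2 fold change of each gene tested (LYVE1+CX3CR1+ minus MHCII+CD11c+, vertical axis) against its mean log2 CPM over the 6 untreated libraries (horizontal axis), with genes called higher and lower in colour. The trail of genes of low level far below 0 includes the 84 with no count in the LYVE1+CX3CR1+ libraries, whose fitted fold depends on the prior count; 1303 points are called lower and 1000 higher.

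The MHC class II genes were among those of most negative log2 fold change. The gate selected cells with and without the class II protein, so the differences of its own chains check the label. All 10 tested members were lower in LYVE1+CX3CR1+, with a median log2 fold change of -6.53 (H2-Eb2 was not tested). H2-Aa and H2-Ab1 encode chains of I-A, and H2-Eb1 encodes a chain of I-E. The class II antibody of the study is listed as against I-A and I-E. Whether I-E protein was present on these C57BL/6 cells was not tested, so H2-Eb1 checks the label only if it was. H2-Eb1, the beta chain of I-E, was at 0, 5.64 and 3.23 CPM in LYVE1+CX3CR1+ and 3364, 3516 and 3881 CPM in MHCII+CD11c+ (log2 fold change -10.17, SE 0.341, edgeR adjusted p = 1.11e-17). H2-Ab1, the beta chain of I-A, was at 20.2, 20.1 and 20.5 CPM in LYVE1+CX3CR1+ and 6630, 7030 and 7825 CPM in MHCII+CD11c+ (log2 fold change -8.46, SE 0.231, edgeR adjusted p = 9.81e-20). Cd74, the invariant chain that holds the peptide groove until the endosome, was at 22.9, 9.4 and 30.1 CPM in LYVE1+CX3CR1+ and 12210, 13600 and 15400 CPM in MHCII+CD11c+ (log2 fold change -9.35, SE 0.625, edgeR adjusted p = 1.92e-11). For H2-Eb1, H2-Ab1 and Cd74 the groups did not overlap, and H2-Eb1 had no count in LYVE1+CX3CR1+ library 1.

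The genes around the class II molecule, which were not sorted on, were lower too. Ciita, the transactivator on which transcription of class II genes depends, was at 1.35, 1.88 and 0.538 CPM in LYVE1+CX3CR1+ and 151, 174 and 178 CPM in MHCII+CD11c+ (log2 fold change -7.0, SE 0.379, edgeR adjusted p = 3.09e-13). H2-DMa and H2-DMb1, the chains of the H2-DM molecule that exchanges the invariant chain peptide for others, had log2 fold changes of -4.77 and -4.93, and H2-DMb2 had -6.07. H2-DMb1 and H2-DMb2 are similar copies whose reads the counting could have split. H2-Oa and H2-Ob encode H2-O, which restrains H2-DM. H2-Oa was at 0, 0.627 and 0 CPM in LYVE1+CX3CR1+ and 3.68, 11.2 and 6.75 CPM in MHCII+CD11c+ (log2 fold change -4.61, SE 1.1, edgeR adjusted p = 0.00302). H2-Ob was at 11.5, 20.7 and 11.8 CPM in LYVE1+CX3CR1+ and 26.3, 26.3 and 46.8 CPM in MHCII+CD11c+ (log2 fold change -1.18, SE 0.393, edgeR adjusted p = 0.0311), the smallest difference of the list. The call of H2-Ob was lost without LYVE1+CX3CR1+ library 1 (log2 fold change -1.03, edgeR adjusted p = 0.125), LYVE1+CX3CR1+ library 3 (log2 fold change -1.03, edgeR adjusted p = 0.138) or MHCII+CD11c+ library 3 (log2 fold change -0.84, edgeR adjusted p = 0.233). It was lost as well with total counts in place of TMM (edgeR adjusted p = 0.0518), with no filter beyond 1 count (0.0523) and with a replicate block (0.0557). The counts of Mir5107, whose 88 bases lie wholly inside Cd74, cannot be told apart from those of Cd74 (-10.34 against -9.35).

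The genes of the class II chains, of H2-DM and of H2-O lie in the H2 complex on chromosome 17, and the known promoters of class II genes share an X box and a Y box, which the partners of Ciita bind. RefSeq promoter windows of 300 bases (250 before and 50 after the start, GRCm38.p6) were searched on both strands for the Y box core CCAAT and the X box core GCAAC. Of 32851 windows, 37.4% held CCAAT and 35.2% GCAAC, so a match of either is common. On the strand of the gene the Y box core of these promoters reads ATTGG, the reverse complement of the letters searched. An X box core followed by that motif 30 to 34 bases later, both in the direction of the gene, was rare, with 35 windows (0.107%). Of the 8 class II genes with an entry, of 11 searched, 5 had this pair. The spacing was chosen after the matches were seen, so the shares describe these windows and test nothing. H2-Ab1, Cd74, Ciita and Lyve1 had no entry. The 150 bases before the start of 4 genes, 5′ to 3′ on the strand of the gene, follow to show the pair, with every motif found in capitals.
H2-Aa: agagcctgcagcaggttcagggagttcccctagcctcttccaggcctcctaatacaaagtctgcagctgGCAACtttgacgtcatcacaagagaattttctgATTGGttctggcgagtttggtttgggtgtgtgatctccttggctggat
H2-Eb1: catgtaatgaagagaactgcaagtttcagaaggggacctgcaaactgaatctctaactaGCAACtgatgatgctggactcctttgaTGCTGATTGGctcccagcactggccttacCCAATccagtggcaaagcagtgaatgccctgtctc
H2-Oa: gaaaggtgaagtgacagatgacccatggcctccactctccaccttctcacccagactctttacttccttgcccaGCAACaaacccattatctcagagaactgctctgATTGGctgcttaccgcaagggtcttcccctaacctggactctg
H2-Ob: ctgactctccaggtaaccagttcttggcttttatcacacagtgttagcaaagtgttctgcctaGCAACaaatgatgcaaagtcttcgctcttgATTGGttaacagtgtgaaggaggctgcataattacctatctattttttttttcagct

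These stretches are chr17:34287824-34287973 (H2-Aa, minus strand), chr17:34305717-34305866 (H2-Eb1, plus strand), chr17:34092229-34092378 (H2-Oa, plus strand) and chr17:34238755-34238904 (H2-Ob, plus strand) of GRCm38. GCAAC began 81 bases before the start in H2-Aa, 91 in H2-Eb1, 76 in H2-Oa and 87 in H2-Ob, and ATTGG lay 33, 32, 33 and 30 bases further on. The 4 genes share the pair while their differences ranged from -10.34 for H2-Aa and -10.17 for H2-Eb1 to -4.61 for H2-Oa and -1.18 for H2-Ob. H2-Eb1 also held CCAAT and TGCTGA, the core of the Maf recognition site, found in 19.5% of windows, the latter overlapping ATTGG. In the windows of the other markers, Vsig4 held GCAAC and the reverse complement of TGCTGA, and Itgax held ATTGG and GCAAC without that spacing. A match of letters is a description and not a site.

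Genes of conventional dendritic cells followed, with 15 of 19 tested called lower in LYVE1+CX3CR1+ and 0 higher (median -3.16). Flt3, the receptor of the growth factor that dendritic cells need, had no count in the LYVE1+CX3CR1+ libraries and 22.1, 44.7 and 70.9 CPM in the others (at least 24.9-fold lower, edgeR adjusted p = 3.04e-07). Ccr7, which guides dendritic cells to lymph nodes, likewise had no count there and 29.4, 19.7 and 50.6 CPM in the others (at least 18.1-fold lower, edgeR adjusted p = 7.06e-08). Cd209a, a lectin of monocyte-derived dendritic cells, had 0, 1 and 2 counts against 330, 409 and 574, 393-fold lower (95% counting interval 134 to 1908). The MHCII+CD11c+ libraries thus held RNA of genes known from dendritic cells beside that of macrophage genes. Of this list, Clec10a, Cd209a, Irf4 and Batf3 are also on the IL-4-associated list below. By fate mapping with Ms4a3, the study found equivalent labelled shares of MHCII+CD11c+ and MHCII+CD11c- cells. It read this as an origin of MHCII+CD11c+ cells like that of macrophages and unlike that of dendritic cells. Dpp4 was at 0, 1.88 and 2.69 CPM in LYVE1+CX3CR1+ and 35.2, 42.1 and 52.1 CPM in MHCII+CD11c+ (log2 fold change -4.68, SE 0.631, edgeR adjusted p = 4.67e-06). Batf3, a factor of the cross-presenting lineage, was at 0, 3.13 and 5.92 CPM in LYVE1+CX3CR1+ and 37.8, 27.6 and 21.7 CPM in MHCII+CD11c+ (log2 fold change -3.16, SE 0.668, edgeR adjusted p = 0.000828). Zbtb46, a factor of conventional dendritic cells, was at 6.74, 3.76 and 1.61 CPM in LYVE1+CX3CR1+ and 12.1, 25.6 and 25.1 CPM in MHCII+CD11c+ (log2 fold change -2.38, SE 0.641, edgeR adjusted p = 0.00757). The call of Zbtb46 was lost without LYVE1+CX3CR1+ library 3 (log2 fold change -1.97, edgeR adjusted p = 0.0573). Xcr1 and Clec9a, which define the cross-presenting cells, were too few to test, with 1, 5 and 0 counts of Xcr1 and 1, 4 and 12 of Clec9a in the MHCII+CD11c+ libraries and 1 count of each in the LYVE1+CX3CR1+ libraries. Irf8 was not called (0.06, edgeR adjusted p = 0.906).

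Genes of circulating monocytes were lower as well, 16 of 21 tested (Ly6c2, of an antigen used in the gate, included), with none higher (median -3.93, or -2.51 with genes without a count in a group set at their bound). Ccr2, the chemokine receptor by which monocytes leave the marrow, was at 29, 23.2 and 31.2 CPM in LYVE1+CX3CR1+ and 779, 778 and 770.1 CPM in MHCII+CD11c+ (log2 fold change -4.79, SE 0.294, edgeR adjusted p = 3.61e-12). F10, coagulation factor X, had no count in LYVE1+CX3CR1+ and 59.4, 25.6 and 31.8 CPM in MHCII+CD11c+ (at least 21.2-fold lower, edgeR adjusted p = 3.72e-07). The classical monocyte marker Ly6c2 had few counts in either group: 9, 1 and 4 in the MHCII+CD11c+ libraries and none in the others. The call of Ly6c2 was lost without LYVE1+CX3CR1+ library 1 (edgeR adjusted p = 0.0596), LYVE1+CX3CR1+ library 2 (0.0624), LYVE1+CX3CR1+ library 3 (0.0723) or MHCII+CD11c+ library 1 (0.108). Lyz1, a lysozyme, was at 472, 324 and 502 CPM in LYVE1+CX3CR1+ and 2241, 1724 and 1818 CPM in MHCII+CD11c+ (log2 fold change -2.15, SE 0.224, edgeR adjusted p = 5.81e-08).

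Among the genes called lower whose log2 CPM averaged 3 or more over the 6 libraries, the 15 of most negative log2 fold change were H2-Aa, Mir5107, H2-Eb1, Ccl8, Upb1, Mucl1, Ccl17, Ccl22, Cd74, Grap2, Ear2, Flt3, Ltb4r1, Ear3 and Ear12. For those with no count in LYVE1+CX3CR1+ the fitted value, and so the place in this ranking, depends on the prior count. Ccl8, a CC chemokine, had 71.5, 110.4 and 72.3 CPM in MHCII+CD11c+ and no count in LYVE1+CX3CR1+ (at least 46.1-fold lower, edgeR adjusted p = 1.33e-09). Upb1, an enzyme of pyrimidine breakdown, was at least 39-fold lower (76.2, 76.3 and 62.7 CPM in MHCII+CD11c+), Mucl1 at least 38-fold (16.3, 98.6 and 94.5 CPM) and Grap2, an adaptor of T cell signalling, at least 31.9-fold (58.3, 44.7 and 72.8 CPM). None of these 4 genes had a count in the LYVE1+CX3CR1+ libraries. Ear2, Ear3 and Ear12 are near-identical ribonucleases, of which Ear3 and Ear12 had the same counts in each library, so they count as 1 signal. Ear2 had 0, 3 and 0 counts against 873, 483 and 566, 575-fold lower (95% counting interval 197 to 2792).

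Among the 15 genes of largest log2 fold change were Prg4, Vcan, Vsig4, S100b, Fabp3, Sparc, Itgb5, Nbl1, Olfml3, Syngr1, Pmepa1, Chst1, Amotl1 and Ctla2a. Prg4 had 892, 9 and 14 counts in the LYVE1+CX3CR1+ libraries and 0, 1 and 4 in the others (log2 fold change 7.67, SE 1.48, edgeR adjusted p = 0.000384). Without LYVE1+CX3CR1+ library 1 its log2 fold change was 2.76 and its edgeR adjusted p = 0.103, so the call rests on that library. Vcan, the large proteoglycan versican, was at 469, 501 and 582 CPM in LYVE1+CX3CR1+ and 11, 11.8 and 13 CPM in MHCII+CD11c+ (log2 fold change 5.42, SE 0.258, edgeR adjusted p = 3.43e-14). Sparc, a matricellular protein, was at 1013, 954 and 719 CPM in LYVE1+CX3CR1+ and 38.4, 55.2 and 37.1 CPM in MHCII+CD11c+ (log2 fold change 4.37, SE 0.349, edgeR adjusted p = 6.09e-10). For both, every LYVE1+CX3CR1+ library lay far above every MHCII+CD11c+ library. Olfml3, a secreted protein of matrix, was at 876, 690.2 and 801 CPM in LYVE1+CX3CR1+ and 67.2, 35.5 and 28 CPM in MHCII+CD11c+ (log2 fold change 4.17, SE 0.278, edgeR adjusted p = 1.82e-11). Itgb5, a chain that pairs with the integrin chain of Itgav, was at 975, 856 and 915 CPM in LYVE1+CX3CR1+ and 58.3, 44 and 41 CPM in MHCII+CD11c+ (log2 fold change 4.26, SE 0.272, edgeR adjusted p = 7.99e-12). S100b, a calcium-binding protein known from Schwann cells and glia, was at 121, 69 and 61.9 CPM in LYVE1+CX3CR1+ and 7.36, 0.657 and 1.93 CPM in MHCII+CD11c+ (log2 fold change 4.57, SE 0.587, edgeR adjusted p = 1.49e-06). Fabp3, a fatty acid carrier, had 1, 2 and 5 counts in MHCII+CD11c+ and was at 41.1, 23.8 and 39.3 CPM in LYVE1+CX3CR1+ (log2 fold change 4.50). Nbl1, an antagonist of bone morphogenetic proteins, had 4.18, Syngr1, a vesicle protein, 4.14, Chst1, a sulfotransferase, 3.89, Amotl1, a junction scaffold, 3.85, and Ctla2a, a protease inhibitor, 3.70.

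**Figure D3:**
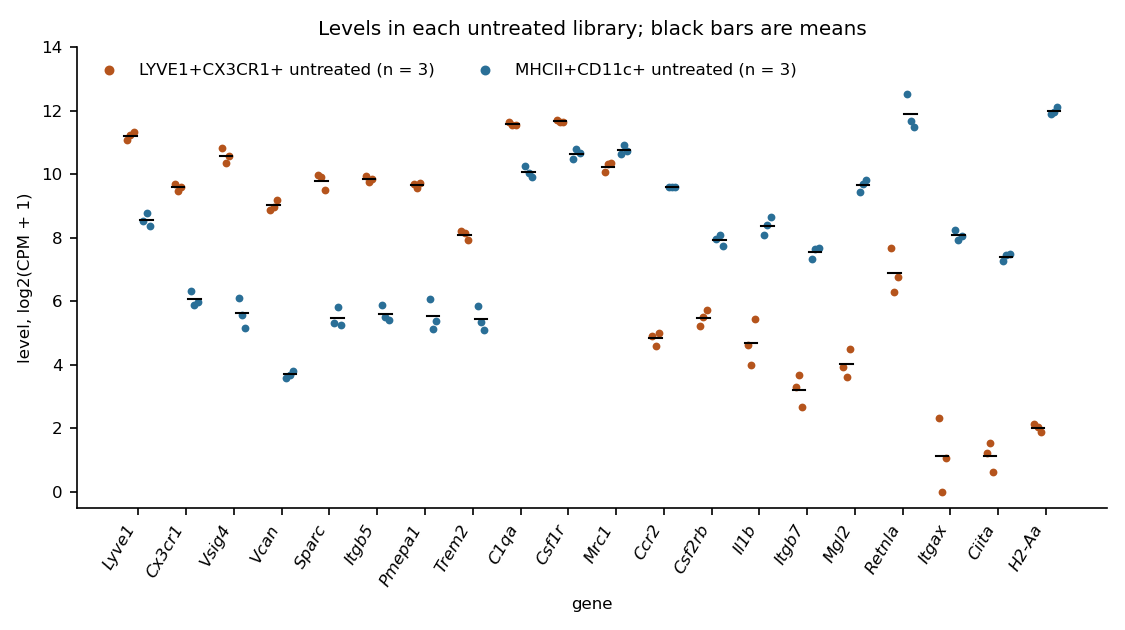
CPM of genes of the comparison in each of the 6 untreated libraries as log2(CPM + 1), 1 point per library with the mean as a black bar, LYVE1+CX3CR1+ and MHCII+CD11c+ in different colours. Vsig4 and Vcan are higher in all 3 LYVE1+CX3CR1+ libraries and Itgax and H2-Aa in all 3 MHCII+CD11c+ libraries, with no overlap.

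Of 20 markers of resident lining macrophages tested, 13 were called higher and 2 lower, and the rest not called (median 1.26, against -0.0183 over all genes), with Cx3cr1, on which the cells were sorted, among those higher. Aqp1, a water channel, was at 634, 1191 and 837 CPM in LYVE1+CX3CR1+ and 139, 118 and 92.6 CPM in MHCII+CD11c+ (log2 fold change 2.93, SE 0.297, edgeR adjusted p = 3.63e-08). Trem2, a receptor for lipids and apoptotic cells, was at 297, 281 and 241 CPM in LYVE1+CX3CR1+ and 56.2, 39.4 and 33.3 CPM in MHCII+CD11c+ (log2 fold change 2.66, SE 0.231, edgeR adjusted p = 2.58e-09). Timd4, a phosphatidylserine receptor, was at 122, 137 and 160.5 CPM in LYVE1+CX3CR1+ and 22.6, 36.2 and 37.6 CPM in MHCII+CD11c+ (log2 fold change 2.12, SE 0.305, edgeR adjusted p = 7.67e-06). Stab1, a scavenger receptor, was at 2078, 1615 and 1797 CPM in LYVE1+CX3CR1+ and 274, 529 and 583 CPM in MHCII+CD11c+ (log2 fold change 1.99, SE 0.259, edgeR adjusted p = 1.8e-06). Cbr2 (log2 fold change 2.05), Gas6, the bridge from phosphatidylserine to the TAM kinases (1.31), Folr2 (1.21) and F13a1 (0.71) were also higher. Not every gene of the list was higher: Cd163 (-0.37), Igf1 (-0.32), Pf4 (0.04) and Axl (0.32) were not called (Axl was without MHCII+CD11c+ library 1, at 0.62 with edgeR adjusted p = 0.025), and Ccl24, an eosinophil attractant, was lower at 41.1, 45.8 and 40.4 CPM in LYVE1+CX3CR1+ and 125, 118 and 107 CPM in MHCII+CD11c+ (log2 fold change -1.46, SE 0.242, edgeR adjusted p = 5.27e-05). The other call lower was Mrc1, the mannose receptor (-0.53, edgeR adjusted p = 0.0226). The call of Mrc1 was lost without LYVE1+CX3CR1+ library 1 (log2 fold change -0.44, edgeR adjusted p = 0.119), LYVE1+CX3CR1+ library 2 (log2 fold change -0.54, edgeR adjusted p = 0.0571) or MHCII+CD11c+ library 2 (log2 fold change -0.44, edgeR adjusted p = 0.117). With total counts in place of TMM it had -0.44 (edgeR adjusted p = 0.059).

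Junction genes, which tie lining macrophages to each other, were called higher in 5 of 8 tested and lower in 0 (median 1.73). The list held 15 genes, of which Cldn1, Cldn5, Ocln, Jam3, Cgn, Pard3 and Esam had too few counts to test. After IC 4 members were called higher and 1 lower. F11r, the adhesion molecule JAM-A, was at 282, 238 and 252 CPM in LYVE1+CX3CR1+ and 38.4, 22.4 and 50.1 CPM in MHCII+CD11c+ (log2 fold change 2.78, SE 0.245, edgeR adjusted p = 3.51e-09). Tjp1, the scaffold ZO-1, was at 29, 23.2 and 27.5 CPM in LYVE1+CX3CR1+ and 8.93, 0.657 and 2.89 CPM in MHCII+CD11c+ (log2 fold change 2.61, SE 0.631, edgeR adjusted p = 0.00295). Ctnnd1, the p120 catenin, had a log2 fold change of 1.27.

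The TGF-beta pathway had 13 members called higher and 2 lower of 25 tested (median 0.842). The count lower was 1 without LYVE1+CX3CR1+ library 3. Receptors were higher: Tgfbr1 was at 243, 241 and 291 CPM in LYVE1+CX3CR1+ and 58.8, 57.2 and 43.9 CPM in MHCII+CD11c+ (log2 fold change 2.28, SE 0.208, edgeR adjusted p = 5.88e-09), Tgfbr2 had 1.06, and the bone morphogenetic protein receptors Bmpr1a and Bmpr2 had 3.23 and 1.0. The ligand Tgfb1 was not called (310, 337 and 316 CPM against 345, 289.9 and 338 CPM). Itgav, which with Itgb5 can free TGF-beta from its latent form, was at 496, 382 and 412 CPM in LYVE1+CX3CR1+ and 131, 73.6 and 99.3 CPM in MHCII+CD11c+ (log2 fold change 2.08, SE 0.223, edgeR adjusted p = 9.15e-08). Some targets and regulators of the pathway were also higher: Pmepa1, which limits the pathway, was at 823, 759 and 839 CPM in LYVE1+CX3CR1+ and 65.7, 34.2 and 40.5 CPM in MHCII+CD11c+ (log2 fold change 4.10, SE 0.325, edgeR adjusted p = 5.58e-10), Skil had 1.57, Ski 1.29, Id3 1.91 and Tgfbi 0.97. Smad7 and Bambi, also on the list, were tested and not called. The type I receptor Acvrl1 was lower (-0.83, edgeR adjusted p = 0.00608), and the other call lower was Nrros.

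Receptors that take up debris and dying cells were called higher in 12 of 27 tested and lower in 4 (median 0.346, or 0.382 with genes without a count at their bound). The count lower was 1 without LYVE1+CX3CR1+ library 1, and 2 without LYVE1+CX3CR1+ library 2, MHCII+CD11c+ library 1 or MHCII+CD11c+ library 2. Besides Timd4, Stab1 and Trem2, Mfge8, which bridges phosphatidylserine to integrins, was at 59.3, 77.7 and 57.6 CPM in LYVE1+CX3CR1+ and 23.6, 12.5 and 24.6 CPM in MHCII+CD11c+ (log2 fold change 1.66, SE 0.339, edgeR adjusted p = 0.00059). Msr1, the class A scavenger receptor, had 1.63, Elmo1, an engulfment adaptor, 1.53, Lrp1, 1.29, and Cd36, 0.88. Siglec1, the sialic acid receptor CD169, was lower at 96.4, 78.4 and 78.6 CPM in LYVE1+CX3CR1+ and 218, 260.3 and 155 CPM in MHCII+CD11c+ (log2 fold change -1.32, SE 0.247, edgeR adjusted p = 0.000228).

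The lysosome list had 32 of 65 members called higher and 4 lower (median 0.578). The count lower was 2 without LYVE1+CX3CR1+ library 2, LYVE1+CX3CR1+ library 3 or MHCII+CD11c+ library 1. Arsb, an arylsulfatase, was at 916, 811 and 817 CPM in LYVE1+CX3CR1+ and 134, 191 and 167 CPM in MHCII+CD11c+ (log2 fold change 2.37, SE 0.226, edgeR adjusted p = 1.3e-08). Ctsd, the aspartic protease cathepsin D, was at 3770, 2847 and 3155 CPM in LYVE1+CX3CR1+ and 1312, 808 and 716 CPM in MHCII+CD11c+ (log2 fold change 1.78, SE 0.21, edgeR adjusted p = 3.96e-07). Of the other enzymes and membrane proteins higher, Lamp1 had 0.88, Lamp2 1.0, Lgmn 1.26, Ctsb 0.64 and Ctss, which trims the invariant chain, 0.53. Lower were Gm2a, a cofactor of ganglioside breakdown, at 148, 147 and 119.5 CPM in LYVE1+CX3CR1+ and 960.4, 846 and 938 CPM in MHCII+CD11c+ (log2 fold change -2.73, SE 0.194, edgeR adjusted p = 6.79e-11), and Ctsh (-1.68).

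Complement genes went both ways, 7 called higher and 7 lower of 21 tested (median -0.495), counting Itgax, a sorted antigen, among the lower. The C1q chains, which start the classical pathway on immune complexes, were higher: C1qa was at 3180, 3000 and 3018 CPM in LYVE1+CX3CR1+ and 1221, 1053 and 969 CPM in MHCII+CD11c+ (log2 fold change 1.5, SE 0.142, edgeR adjusted p = 1.09e-08), C1qb had 1.19 and C1qc 1.53. The anaphylatoxin receptors C3ar1 (1.78) and C5ar1 (1.60) were higher too. C3, the central component, was lower at 1.35, 1.25 and 5.38 CPM in LYVE1+CX3CR1+ and 68.8, 32.9 and 59.3 CPM in MHCII+CD11c+ (log2 fold change -4.22, SE 0.741, edgeR adjusted p = 0.000105). Cfb, factor B, was at 10.1, 26.3 and 14 CPM in LYVE1+CX3CR1+ and 119, 147 and 108 CPM in MHCII+CD11c+ (log2 fold change -2.88, SE 0.34, edgeR adjusted p = 4.12e-07). Cfp, properdin, was at 43.8, 85.9 and 74.3 CPM in LYVE1+CX3CR1+ and 978, 729.7 and 843 CPM in MHCII+CD11c+ (log2 fold change -3.64, SE 0.261, edgeR adjusted p = 7.62e-11). C6, a part of the membrane attack complex, had no count in LYVE1+CX3CR1+ (at least 6.35-fold lower). C4a and C4b, similar copies, had -1.24 and -1.18.

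Among CC chemokines, 8 of 13 tested were called lower and 1 higher (median -1.35). Ccl17 and Ccl22, ligands of Ccr4, had no count in the LYVE1+CX3CR1+ libraries, with 82, 59.2 and 59.8 and 30.5, 30.9 and 124 CPM in the MHCII+CD11c+ libraries (at least 36.4-fold and 33.6-fold lower). MHCII+CD11c+ library 3 had the highest Ccl22. Ccl6 was at 384, 305 and 328 CPM in LYVE1+CX3CR1+ and 2155, 1734 and 1581 CPM in MHCII+CD11c+ (log2 fold change -2.43, SE 0.211, edgeR adjusted p = 2.66e-09). Ccl9 had -0.97. The 1 call higher was Cxcl16, listed with both families (0.65). The call of Cxcl16 was lost without LYVE1+CX3CR1+ library 1 (log2 fold change 0.58, edgeR adjusted p = 0.0796) or MHCII+CD11c+ library 1 (log2 fold change 0.56, edgeR adjusted p = 0.0936). Of the 9 CXC chemokines tested, 4 were lower (2 without MHCII+CD11c+ library 3), with a median of 0.00345, among them Cxcl10 (-3.19) and Cxcl12 (-3.33). Of 18 receptors of chemokines and other migration signals tested, 8 were higher and 5 lower, the sorted Cx3cr1 among the higher, and the median changed sign, from -0.307 to 0.582, when genes without a count in a group were set at their bound. Besides Ccr2 and Ccr7, Cxcr5, which guides cells to B cell follicles, was lower (0, 1 and 0 counts against 25, 17 and 47, 79.9-fold lower (95% counting interval 14 to 3191)). Higher were S1pr1, the receptor for sphingosine phosphate, at 286, 275 and 306 CPM in LYVE1+CX3CR1+ and 49.4, 78.9 and 64.1 CPM in MHCII+CD11c+ (log2 fold change 2.18, SE 0.186, edgeR adjusted p = 1.94e-09), Gpr183 (1.55), Ccr1 (1.23), Cmklr1 (1.21) and Cxcr4 (0.99).

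Cytokines and their receptors had 5 members called higher and 12 lower of 37 tested, with a median of 0.112, whose sign is opposite to that of most calls. Il1b, the inflammatory cytokine, was at 23.6, 15 and 42 CPM in LYVE1+CX3CR1+ and 270, 335 and 401 CPM in MHCII+CD11c+ (log2 fold change -3.62, SE 0.372, edgeR adjusted p = 4.61e-08). Il6 was at 16.2, 8.15 and 7.0 CPM in LYVE1+CX3CR1+ and 85.6, 84.2 and 76.2 CPM in MHCII+CD11c+ (log2 fold change -2.98, SE 0.524, edgeR adjusted p = 0.000106). Il1rn, the antagonist of the IL-1 receptor, had -2.30. The receptor of IL-33, Il1rl1, was at 4.04, 19.4 and 5.92 CPM in LYVE1+CX3CR1+ and 87.7, 99.9 and 113 CPM in MHCII+CD11c+ (log2 fold change -3.35, SE 0.383, edgeR adjusted p = 2.56e-07). The receptor chains of the growth factor GM-CSF were lower, with Csf2rb at -2.47, Csf2rb2, its similar copy, at -1.34 and Csf2ra at -1.32, whereas Csf1r, the receptor of macrophage colony-stimulating factor, was higher at 3326, 3190 and 3183 CPM in LYVE1+CX3CR1+ and 1434, 1755 and 1635 CPM in MHCII+CD11c+ (log2 fold change 1.01, SE 0.226, edgeR adjusted p = 0.00147). Il21r (2.31), Il17ra (1.22) and Il10rb (1.06) were higher, as was the inflammatory cytokine Tnf, opposite to Il1b and Il6. Of 14 growth factors tested, 5 were higher and 2 lower (median 1.03). Bmp2 was at 86.9, 75.2 and 92.1 CPM in LYVE1+CX3CR1+ and 19.96, 16.4 and 22.7 CPM in MHCII+CD11c+ (log2 fold change 2.09, SE 0.319, edgeR adjusted p = 1.75e-05), and Vegfb (1.49), Pdgfb (1.23) and Pdgfc (1.03) were higher, while Areg, an EGF receptor ligand, was lower at 8.09, 2.51 and 3.23 CPM in LYVE1+CX3CR1+ and 39.9, 40.1 and 41.5 CPM in MHCII+CD11c+ (log2 fold change -3.14, SE 0.545, edgeR adjusted p = 9.29e-05). The other call lower was Vegfa, the growth factor of vessels (-2.15). The call of Vegfa was lost without LYVE1+CX3CR1+ library 1 (log2 fold change -2.06, edgeR adjusted p = 0.0795), LYVE1+CX3CR1+ library 2 (log2 fold change -1.64, edgeR adjusted p = 0.124) or MHCII+CD11c+ library 1 (log2 fold change -1.62, edgeR adjusted p = 0.154).

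Eicosanoid genes, 4 higher and 9 lower of 20 tested, went both ways (median -0.999). Ltb4r1, the receptor for leukotriene B4, had no count in LYVE1+CX3CR1+ and 48.9, 42.7 and 44.9 CPM in MHCII+CD11c+ (at least 24.7-fold lower, edgeR adjusted p = 2.98e-08). Ptger2 and Ptgir, receptors for prostaglandin E2 and prostacyclin, were lower (Ptger2 at least 6.75-fold, Ptgir with a log2 fold change of -4.07). Alox5, 5-lipoxygenase, was at 514, 549.8 and 572 CPM in LYVE1+CX3CR1+ and 169, 170.3 and 176 CPM in MHCII+CD11c+ (log2 fold change 1.67, SE 0.152, edgeR adjusted p = 5.77e-09). Ltc4s, which makes leukotriene C4, was at 162, 93.4 and 107 CPM in LYVE1+CX3CR1+ and 16.8, 25 and 17.4 CPM in MHCII+CD11c+ (log2 fold change 2.62, SE 0.339, edgeR adjusted p = 1.67e-06). Hpgd, which inactivates prostaglandins, was at 346, 324 and 339 CPM in LYVE1+CX3CR1+ and 62, 107 and 69 CPM in MHCII+CD11c+ (log2 fold change 2.09, SE 0.198, edgeR adjusted p = 1.12e-08). Lta4h, which makes leukotriene B4, was lower (-1.31), as were the cyclooxygenases Ptgs1 (-3.26) and Ptgs2 (-1.66).

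Receptors of nerve signals and nucleotides included P2ry12 (114, 166 and 156 CPM in LYVE1+CX3CR1+ and 24.2, 38.1 and 37.1 CPM in MHCII+CD11c+; log2 fold change 2.13, SE 0.267, edgeR adjusted p = 1.05e-06), P2ry13 (2.39), P2ry6 (1.13) and P2rx7 (0.82), all higher, with the ectonucleotidase Entpd1 (1.21). The calcitonin-receptor-like receptor Calcrl, which binds CGRP when paired with Ramp1, was at 117, 90.9 and 89.9 CPM in LYVE1+CX3CR1+ and 23.6, 36.8 and 22.7 CPM in MHCII+CD11c+ (log2 fold change 1.85, SE 0.276, edgeR adjusted p = 1.29e-05). Its partner Ramp1 went the other way, at 2.02, 4.39 and 1.08 CPM in LYVE1+CX3CR1+ and 74.1, 55.9 and 76.2 CPM in MHCII+CD11c+ (log2 fold change -4.76, SE 0.576, edgeR adjusted p = 5.99e-07). Ngfr, the low-affinity neurotrophin receptor, had no count in LYVE1+CX3CR1+ (at least 16.7-fold lower). In all 6 of 17 tested were higher and 3 lower (median 0.722).

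C-type lectins, which bind sugars, were mostly lower (17 of 23 tested, 3 higher, median -2.07, or -1.99 with genes without a count at their bound). Mgl2 was at 14.2, 11.3 and 21.5 CPM in LYVE1+CX3CR1+ and 685, 819.8 and 906 CPM in MHCII+CD11c+ (log2 fold change -5.66, SE 0.293, edgeR adjusted p = 1.47e-13). Clec10a, the related galactose lectin, was at 6.07, 13.8 and 14.5 CPM in LYVE1+CX3CR1+ and 364, 418 and 368 CPM in MHCII+CD11c+ (log2 fold change -5.03, SE 0.313, edgeR adjusted p = 5.08e-12). Cd209f and Cd209g, of a family of similar copies, had -4.07 and -4.04. Clec4b1 had 0, 1 and 0 counts against 103, 88 and 94, 256-fold lower (95% counting interval 45.6 to 10142). The 3 higher were Clec5a at 159, 145 and 160.5 CPM in LYVE1+CX3CR1+ and 26.3, 21.7 and 31.8 CPM in MHCII+CD11c+ (log2 fold change 2.53, SE 0.202, edgeR adjusted p = 6.09e-10), Colec12 (1.90) and Olr1 (1.40).

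IL-4-associated genes, of which the lectin list also holds Mgl2, Clec10a, Mrc1 and Cd209a, were lower in 19 of 26 tested and higher in 2 (1 without LYVE1+CX3CR1+ library 3 or MHCII+CD11c+ library 1) (median -3.36, or -2.93 with genes without a count at their bound). Retnla, a secreted protein of such macrophages, was at 203, 76.5 and 107 CPM in LYVE1+CX3CR1+ and 5838, 3229 and 2879 CPM in MHCII+CD11c+ (log2 fold change -4.95, SE 0.437, edgeR adjusted p = 3.53e-09). Itgax, a sorted antigen, Ccl17 and Cd209a of this list have been given. Tgm2, a transglutaminase also on the list, was higher at 495, 315 and 449.6 CPM in LYVE1+CX3CR1+ and 158, 48.6 and 54 CPM in MHCII+CD11c+ (log2 fold change 2.27, SE 0.291, edgeR adjusted p = 1.49e-06), and Irf4 was lower (-1.62).

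Integrins and adhesion molecules went both ways, 9 higher and 16 lower of 30 tested (median -1.19), the sorted Itgax among the lower. Itgb7, an integrin chain of lymphocytes and other leukocytes, was at 8.76, 11.9 and 5.38 CPM in LYVE1+CX3CR1+ and 158, 197 and 202 CPM in MHCII+CD11c+ (log2 fold change -4.42, SE 0.393, edgeR adjusted p = 3.82e-09). Itgal, of LFA-1, was at 2.7, 3.76 and 12.4 CPM in LYVE1+CX3CR1+ and 62.5, 66.4 and 88.7 CPM in MHCII+CD11c+ (log2 fold change -3.45, SE 0.557, edgeR adjusted p = 3.69e-05), and Emb, embigin, had -5.09. Cd44, the hyaluronan receptor, was at 454, 451 and 479 CPM in LYVE1+CX3CR1+ and 1021, 1061 and 987 CPM in MHCII+CD11c+ (log2 fold change -1.15, SE 0.148, edgeR adjusted p = 1.52e-06). Itgb3 was lower as well (-4.26), and Itga1 had 0, 0 and 3 counts in LYVE1+CX3CR1+ and 27, 12 and 37 in MHCII+CD11c+ (22.7-fold lower (95% counting interval 7.49 to 113)). Without LYVE1+CX3CR1+ library 3, which left Itga1 with no count in that subset, its call was kept (edgeR adjusted p = 0.0035). Higher were Itga9 (2.09), Itga6 (1.83), Itgav and Itgb5, and the tetraspanins Cd9 (1.19) and Cd63 (1.57).

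Proteases of the matrix went both ways (8 higher and 7 lower of 26 tested, median 0.327). Mmp9 and Mmp19 were lower, Mmp9 at 4.72, 8.15 and 7.54 CPM in LYVE1+CX3CR1+ and 114, 108 and 100.3 CPM in MHCII+CD11c+ (log2 fold change -3.95, SE 0.557, edgeR adjusted p = 5.66e-06) and Mmp19 with -3.64. Adam8, a metalloprotease, was at 16.2, 12.5 and 14.5 CPM in LYVE1+CX3CR1+ and 429, 321 and 282 CPM in MHCII+CD11c+ (log2 fold change -4.57, SE 0.433, edgeR adjusted p = 1.12e-08). Timp2, an inhibitor, was higher at 3818, 3761 and 3520 CPM in LYVE1+CX3CR1+ and 808, 748 and 741 CPM in MHCII+CD11c+ (log2 fold change 2.27, SE 0.188, edgeR adjusted p = 1.2e-09), as were Htra3 (3.37) and Mmp2 (3.65). Of 26 matrix and matricellular genes, 9 were higher and 1 lower (2 without LYVE1+CX3CR1+ library 1 or LYVE1+CX3CR1+ library 3), the latter Lgals3 at 249, 235 and 161 CPM in LYVE1+CX3CR1+ and 723, 580.5 and 516 CPM in MHCII+CD11c+ (log2 fold change -1.5, SE 0.181, edgeR adjusted p = 5.97e-07), and the median was 0.255. Besides Vcan and Sparc, Col14a1 (2.53), Fbln5 (2.68), Nid2 (1.86) and Tgfbi were higher.

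Transcription factors had 13 members called higher and 20 lower of 64 tested (median -0.293). The count lower was 13 without LYVE1+CX3CR1+ library 1. Maf, which is known to restrain the self-renewal of macrophages, was higher at 416, 386 and 378 CPM in LYVE1+CX3CR1+ and 172, 178 and 166 CPM in MHCII+CD11c+ (log2 fold change 1.20, SE 0.168, edgeR adjusted p = 5.66e-06). Klf2 (1.07), Cebpa (0.80), Bhlhe41 (2.23) and Id3 were higher too. Lower were Runx3 at 0.674, 0 and 3.23 CPM in LYVE1+CX3CR1+ and 52.5, 31.6 and 60.8 CPM in MHCII+CD11c+ (log2 fold change -5.03, SE 0.719, edgeR adjusted p = 7.06e-06), Etv3 (-2.0), Nr4a3 (-2.10), Irf5 (-0.81) and Irf1 (-0.70), along with Ciita, Irf4 and Batf3.

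Cell cycle genes were lower in LYVE1+CX3CR1+, 31 of 49 tested with 1 higher (median -2.15). Top2a, topoisomerase of dividing cells, was at 6.07, 20.7 and 19.9 CPM in LYVE1+CX3CR1+ and 108, 88.8 and 87.3 CPM in MHCII+CD11c+ (log2 fold change -2.58, SE 0.53, edgeR adjusted p = 0.00061). Mcm5, of the replication helicase, was at 16.2, 13.2 and 11.8 CPM in LYVE1+CX3CR1+ and 54.6, 66.4 and 61.7 CPM in MHCII+CD11c+ (log2 fold change -2.15, SE 0.374, edgeR adjusted p = 9.49e-05). Ccnb2 had -3.49, Uhrf1 -2.58, Rrm2 -2.39, Ccnd1 -1.95 and Ccnd2 -3.70. Cdk6 was the 1 member higher (1.79). B cell and neutrophil markers were also lower in the LYVE1+CX3CR1+ libraries (sums of 0.627 to 3.77 and 18.9 to 24.8 CPM against 80.2 to 111 and 129.5 to 864 CPM), and their part in this result was not tested. After IC 14 of these genes were called lower in the other libraries of the same subsets.

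Lipid genes had 12 called higher and 11 lower of 41 tested (median 0.171). The count lower was 7 without MHCII+CD11c+ library 1. Lpl, lipoprotein lipase, was at 62, 38.9 and 42.5 CPM in LYVE1+CX3CR1+ and 694, 530.5 and 464 CPM in MHCII+CD11c+ (log2 fold change -3.56, SE 0.307, edgeR adjusted p = 2.43e-09), Abcg3 had -3.67 and Scd1 -2.58, while Lpcat2 (2.15) and Pltp (0.77) were higher. The carriers of fatty acids differed among themselves: Fabp5 was lower, at 0, 6.9 and 0 CPM in LYVE1+CX3CR1+ and 53.1, 40.1 and 38.1 CPM in MHCII+CD11c+ (log2 fold change -4.23, SE 0.584, edgeR adjusted p = 4.25e-06), and Fabp3, given above, was higher. Of the LYVE1+CX3CR1+ libraries only library 2 had counts of Fabp5, and without it the log2 fold change was -8.85, a value that depends on the prior count. Pparg, a nuclear receptor that fatty acids activate, was lower (-2.35). The call of Pparg was lost without LYVE1+CX3CR1+ library 1 (log2 fold change -2.41, edgeR adjusted p = 0.0542), LYVE1+CX3CR1+ library 3 (log2 fold change -2.10, edgeR adjusted p = 0.0949) or MHCII+CD11c+ library 1 (log2 fold change -2.14, edgeR adjusted p = 0.0804). Nr1h3, the oxysterol receptor LXR-alpha, was higher at 24.9, 22.6 and 31.2 CPM in LYVE1+CX3CR1+ and 13.1, 7.23 and 1.45 CPM in MHCII+CD11c+ (log2 fold change 1.86, SE 0.485, edgeR adjusted p = 0.00572). Of 18 genes of iron and haem tested, 5 were lower and 1, the ferritin chain Fth1 (0.64), higher (median -0.311). Over all genes tested 12.4% were lower and 9.48% higher. Trf, transferrin, was lower at 289, 341 and 333 CPM in LYVE1+CX3CR1+ and 549, 717 and 727 CPM in MHCII+CD11c+ (log2 fold change -1.05, SE 0.226, edgeR adjusted p = 0.000995), as was its receptor Tfrc (-0.93). The call of Tfrc was lost without MHCII+CD11c+ library 3 (log2 fold change -0.66, edgeR adjusted p = 0.0973). Lcn2 and Hp, also called lower, are among the genes of neutrophils and had no count in LYVE1+CX3CR1+.

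Interferon-stimulated genes were lower in 13 of 38 tested (7 without LYVE1+CX3CR1+ library 1) and higher in 1 (median -0.475), among the former Ifitm3 (-1.41), Gbp3 (-1.55) and Ifi47 (-1.89). Over all genes tested 9.48% were called higher and 12.4% lower, and the counts of each list here are to be read beside these shares. Toll-like receptors and inflammasome genes had 3 members higher and 6 lower of 35 tested (median -0.106): Tlr9 was lower at 9.43, 14.4 and 17.8 CPM in LYVE1+CX3CR1+ and 73, 99.3 and 50.6 CPM in MHCII+CD11c+ (log2 fold change -2.39, SE 0.331, edgeR adjusted p = 4.4e-06), and Tlr13 (2.36), Tlr2 (1.29) and Tlr7 (1.03) were higher. Of 24 glycolysis genes 6 were lower and 3 higher (median -0.497), the former including Slc2a1, a glucose transporter (-1.99), and Pfkp (-1.47). Fc receptors for IgG had 1 higher and 2 lower of 7 (median 0.000175). The inhibitory receptor Fcgr2b was lower at 289.8, 250.1 and 228 CPM in LYVE1+CX3CR1+ and 399, 463 and 453 CPM in MHCII+CD11c+ (log2 fold change -0.78, SE 0.161, edgeR adjusted p = 0.000644), as was the activating receptor Fcgr4 (-3.32), and the recycling receptor Fcgrt was higher at 963, 828 and 862 CPM in LYVE1+CX3CR1+ and 329.9, 481 and 435 CPM in MHCII+CD11c+ (log2 fold change 1.09, SE 0.172, edgeR adjusted p = 2.75e-05). These are RNA levels. For the protein the study reported the other direction, by flow cytometry: more FcγRIIb on LYVE1+CX3CR1+ macrophages than on the other subsets. It found no FcγRIV on synovial macrophages. Of 15 T cell costimulation genes tested, 8 were lower and 3 higher (median -1.29). Cd274, the inhibitory ligand PD-L1, was lower at 1.35, 1.25 and 1.61 CPM in LYVE1+CX3CR1+ and 27.3, 15.8 and 11.1 CPM in MHCII+CD11c+ (log2 fold change -3.59, SE 0.741, edgeR adjusted p = 0.000641). Cd226 had 0, 0 and 1 counts against 185, 150 and 244, 519.8-fold lower (95% counting interval 92.9 to 20568), and Slamf7 had -4.77, while Cd40 (1.59) and Havcr2, the receptor TIM-3, (2.62) were higher. Of 8 Ms4a genes tested 4 were higher, among them Ms4a7 (1.19), and 3 lower, among them Ms4a8a (-3.29), with a median of 0.146. Of 19 genes that respond to tissue dissociation, 4 were lower and none was higher (median -0.0895).

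**Figure D4:**
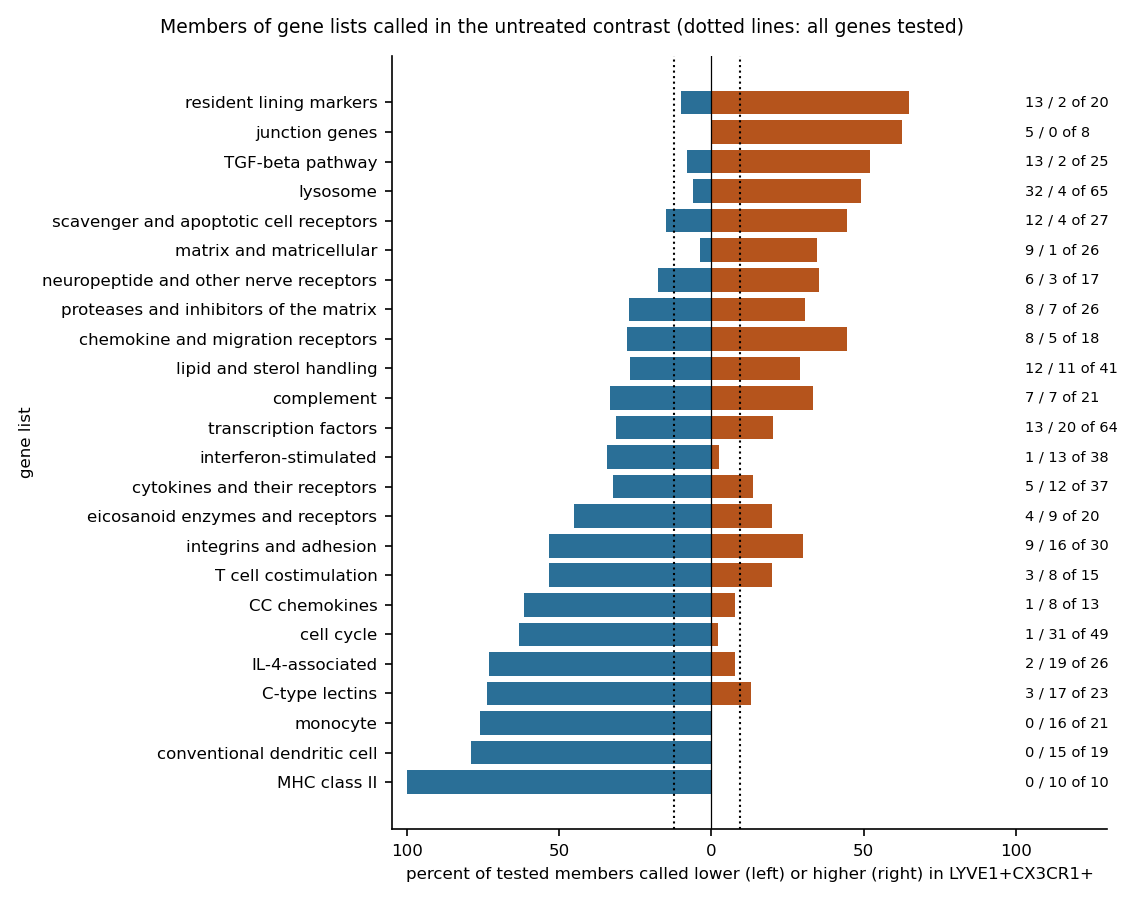
Percent of the tested members of each of 24 gene lists called lower (left) or higher (right) in LYVE1+CX3CR1+, with the percent over all genes tested as dotted lines (12.4 lower, 9.48 higher) and the counts higher, lower and tested at the right. MHC class II, dendritic cell, monocyte and cell cycle lists lie far to the left, and junction, lining and TGF-beta lists to the right.

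The same pair of subsets was also sorted 8 h after IC, in libraries that are not among the 6 of the untreated comparison. All 18 libraries were fitted together, so both comparisons share the gene filter and 1 estimate of the spread. After IC, 2081 genes (19.7%) were called, 866 higher and 1215 lower. Both comparisons called 1530 genes, all in the same direction, which is 66.4% of the untreated calls and 73.5% of the calls after IC. With only the libraries compared in each fit, 61.8% of the untreated calls were called after IC in the same direction. Of the 2303 untreated calls, 2270 (98.6%) had the same sign after IC, and 626 of the 784 calls beyond 2 log2 units were called again. Vsig4 had 4.96 untreated and 4.10 after IC, H2-Aa -10.34 and -8.99, Ccr2 -4.79 and -4.54, C1qa 1.5 and 1.49, and Retnla -4.95 and -5.37.

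The difference between the 2 comparisons was tested for each gene. Only Vcan was called (0.00948% of 10550), with 474 genes at an unadjusted p under 0.05. That is not more than this threshold would pass if no gene differed. MHCII+CD11c+ library 1 after IC held 671244 counts, which limits what the test can see. Untreated, Vcan was at 469, 501 and 582 CPM in LYVE1+CX3CR1+ and 11, 11.8 and 13 in MHCII+CD11c+. After IC it was at 435, 396 and 560.4 and 43.2, 45.6 and 60.9 CPM, so the ranges with and without IC overlapped in LYVE1+CX3CR1+ and not in MHCII+CD11c+. The log2 fold change was 5.42 untreated and 3.19 after IC, a difference of 2.23 (SE 0.333, edgeR adjusted p = 0.00501). Without replicate 3 of MHCII+CD11c+ after IC, the difference was 2.02 and the edgeR adjusted p = 0.116. Among the next by p, Mpeg1, Lpl, Ccl6, Slc17a5, Fscn1, Ednrb, Scd1 and Clec5a, were not called, Mpeg1 with -3.14 untreated and -2.03 after IC, and Slc17a5 with 2.39 and 0.62.

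**Figure D5:**
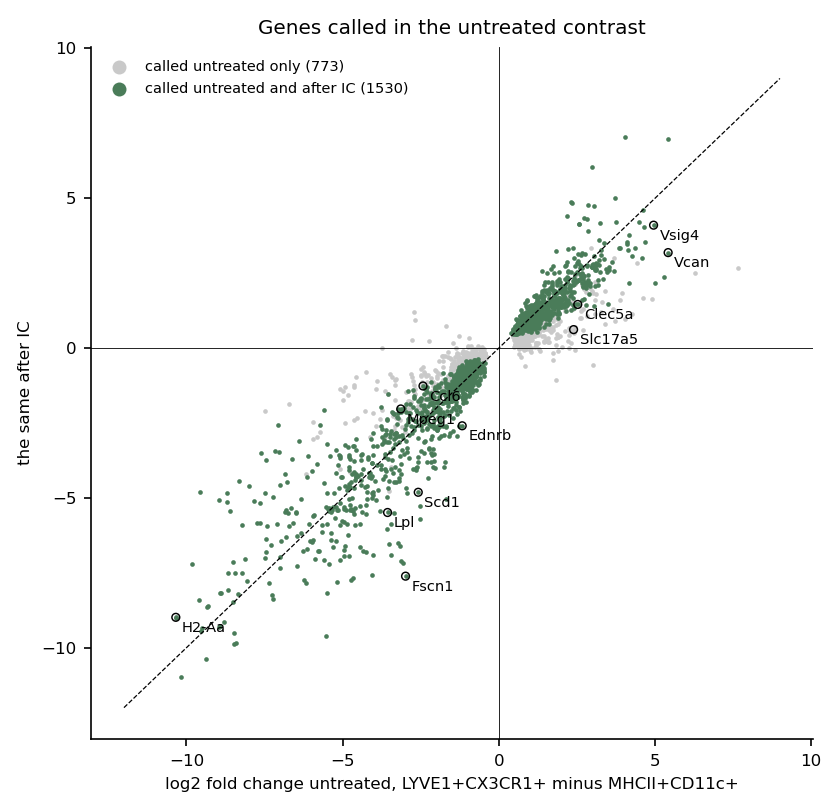
Log2 fold change after IC (vertical axis) against the same without treatment (horizontal axis) for the 2303 genes called without treatment, those called in both in green, with a dashed line where both are equal and circles around named genes. The points lie along the diagonal, and Vcan is the gene whose difference between the axes was called.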

How the data were processed

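Bulk RNA-sequencing was done on macrophages sorted from the synovium of wild-type C57BL/6 mice (C57BL/6J in the methods), in 18 libraries of 6 groups (3 subsets, untreated and 8 h after intravenous IC, 3 libraries each). Per the study's methods and the submitters' processing notes, libraries were made with the SMARTer Stranded Total RNA-seq Pico kit and sequenced as read pairs, and the authors trimmed reads with Trim Galore, checked them with FastQC, aligned them to mm10 with HISAT2 and counted them per gene with featureCounts. Tool versions, the annotation, the strand setting of the counting and the treatment of reads with several matches or of duplicates are not given in the sources used here, so genes with similar copies or overlapping partners are uncertain. The authors deposited raw counts per gene symbol, with no normalization, in 1 file per sample. A combined table held the same values and was not used. Of 24421 symbols, 17957 had a count in any library, and 23204 (95.0%) matched RefSeq on GRCm38, which is the build mm10. Mitochondrial genes were not analysed here.

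Groups came from the sample titles. No 2 replicates of the groups compared agreed within sampling noise (lowest chi-square per gene 3.43). Counts were fitted with edgeR 4.0.16 in R 4.3.3 over all 18 libraries with 1 coefficient per group, TMM scaling and filterByExpr, which kept 10550 genes. Differences were tested with the quasi-likelihood F test on the untreated contrast, the same contrast after IC and the difference between both, with Benjamini-Hochberg adjustment over all genes tested and a threshold of 0.05. Standard errors were taken from the F statistic, as log2 fold change over root F. Levels are CPM on TMM-scaled library sizes. A fold against a group with no count was bounded with 3 counts per library, and a ratio with 1 to 3 counts in a group has an exact 95% counting interval. The steps were tested on simulated counts.

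The text names the 4 markers, on each side the 15 called genes of widest log2 fold change whose log2 CPM averaged 3 or more and whose groups did not overlap (no Gm or Rik models), members of 45 gene lists by role, and the 10 genes of smallest p for the difference. Some genes that this rule takes in are not reported here. The members and lists were chosen with earlier results of these data known, so they are described by counts and medians with no set test. Alternatives were DESeq2 1.42.0 size factors and Wald test, total counts, leaving out Rn45s, other filters, only the libraries compared, a replicate block, 1 surrogate variable (sva 3.50.0) and leaving out each library.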

Additional observations from a re-analysis of the deposited data

Results flagged for a closer look

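Vcan was the 1 gene whose difference between the subsets was itself called different with and without IC. Its log2 fold change between LYVE1+CX3CR1+ and MHCII+CD11c+ was 2.23 larger without treatment (SE 0.333, edgeR adjusted p = 0.00501), and Vcan was higher in LYVE1+CX3CR1+ in both comparisons. The cause was not tested.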

How the results depend on the processing

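The 2303 untreated calls were 2309 with DESeq2 size factors, 2318 with total counts, 2313 without Rn45s, 2345 with no filter beyond 1 count, 1661 with 10 counts in every library compared, 2441 with DESeq2's Wald test, 2839 with only the libraries compared, 2600 with 1 surrogate variable and 1815 to 1960 without 1 library. Without LYVE1+CX3CR1+ library 1 and MHCII+CD11c+ library 1 together, a setting chosen after seeing the data, they were 1489, of which 654 were higher and 835 lower. The 1000 genes higher were 760 to 841 and the 1303 lower 1022 to 1141 without 1 library, and the latter 853 with 10 counts in every library. The 2081 calls after IC were 1577 to 1734 without 1 library. The percent of untreated calls also called after IC was 56.8 to 73 without 1 library. With total counts the median of all genes was 0.0674, and 50.3% of calls were higher, against 43.4% with TMM. The difference between the comparisons had 27 calls with no filter beyond 1 count, 12 with the Wald test, 4 with only the libraries compared, 2 with 1 surrogate variable and 0 to 1 without 1 library. With the replicate number as a block there were 2322 untreated calls (2216 shared) and 2 calls of the difference. Same-numbered libraries of the 2 subsets correlated at 0.225, 0.0572 and 0.123 untreated over 4919 genes, and at 0.0567, 0.0543 and 0.113 after IC, and different-numbered ones at -0.169 to 0.0662 and -0.0807 to 0.0172. Of these 12 libraries, 11 correlated best with their own number, a hint from the data and not the design. Not every pair passed 0.1 and the labels do not say whether same-numbered libraries share a pool, so they were not treated as pairs.

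Of 3285 values of named genes under the alternatives, 3241 kept direction and side of the threshold. The sign turned for genes that were not called: Irf8 (-0.15 to 0.29) and Pf4 (-0.26 to 0.29) without 1 library, and Tgfb1 (0.072 with total counts, 0.011 with no filter, -0.089 to 0.033 without 1 library). The cause was not tested. Of 880 counts of list members, 799 were within 1.5 times. Totals of 1509070 to 2172358 counts per library limit what can be seen of genes near 1.45 to 2.02 CPM, the level of 3 counts.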
